A study of Mus musculus with 4 samples.

Results

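The integration sites compared here are those of an HIV-based vector in cells that carried full-length TAF3, either wild type (Full WT) or with the M880A substitution (Full M880A). A site is a distinct combination of chromosome, strand and junction between vector and genome, in mm9 coordinates. The Full WT list held 22486 sites and the Full M880A list 39292, together 61778 of the 122029 sites in the 4 lists of the series. The other lists belong to the PHD domain alone and enter no comparison below. Both libraries came from Psip1 (-/-) mouse embryonic fibroblasts of the C57BL/6 strain, nucleofected with a plasmid that joins TAF3 to IBD, the integrase-binding domain of LEDGF. The cells recovered for 24 to 36 h, were sorted for GFP, and were infected with 500 ng of a VSV-G pseudotyped luciferase vector in 8 µg/mL polybrene. They were harvested 48 to 72 h later. Each form is represented by 1 library of 1 transfected culture with a fusion made from a plasmid, and no library without a fusion was used here. Integration sites carry no expression values, so the cell type could not be checked against markers.

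TAF3 is a subunit of TFIID, the general transcription factor that binds core promoters and starts the assembly of the preinitiation complex. Its PHD finger, a small zinc-binding domain near the C terminus, recognises histone H3 trimethylated on lysine 4, the mark of active promoters, and residue 880 lies in that finger. LEDGF, the product of Psip1, normally ties HIV integrase to chromatin through its IBD. In cells without it, an IBD fusion can direct integration to the places where its partner protein is bound, so the vector's positions serve as a record of that partner. The comparison asks how the places marked by the whole protein depend on residue 880.

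Each site comes with a whole number, read here as its number of reads; these add up to 2119983 in Full WT and 3651264 in Full M880A. Sites lay on 20 chromosomes, and 50.3% (Wilson 95% interval 49.6 to 50.9) and 49.9% (49.4 to 50.4) of them were on the plus strand. By the read names, the libraries were run on different flow cells. Form cannot be told apart from flow cell or from anything else that differed between the runs. The libraries also differed in the length of the listed fragments. The median fragment was 106 bp in Full WT (quartiles 75.8 and 151 bp) and 147 bp in Full M880A (105 and 178 bp). Fragments under 100 bp made up 44.8% of the Full WT sites and 22.2% of the Full M880A sites. Since this difference moved with several results, values for fragments under 100 bp (10077 Full WT and 8719 Full M880A sites) and of at least 100 bp (12409 and 30573) are given beside them. All intervals below cover at most counting error. Reads came through PCR and carry no molecular identifiers, so they do not count molecules, and sites in 1 small region are not independent of each other. With 1 library per form there is no replicate check, and each difference is between these libraries.

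Full WT sites were spaced more closely than Full M880A sites at every distance examined up to 5000 kb, and the gap was widest between 10 bp and 1 kb. Spacing was measured as a pair density, the number of site pairs at a given distance divided by the number for sites placed evenly along the span of each chromosome. Its value is 1 for even placement and does not depend on the length of the list. Within 1 kb the density was 57.4 in Full WT (12262 pairs) and 15.8 in Full M880A (9987 pairs), a ratio of 3.64 (3.55 to 3.74). The ratio was above 1 on 20 of 20 chromosomes, from 2.71 on chromosome 5 to 7.01 on chromosome X. It was 5.70 among sites with fragments of at least 100 bp and 1.16 among those with shorter ones, a split taken up after the spacing of all sites.

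The ratio changed with distance. Up to 10 bp the density was 207 in Full WT and 95.0 in Full M880A, a ratio of 2.18 (1.92 to 2.47). Of these 442 Full WT and 602 Full M880A pairs, 247 and 450 were positions on the same strand 1 to 3 bp apart. Whether such positions are separate integrations was not tested. Between 50 and 100 bp it was 82.3 and 17.6, with the highest ratio of any bin at 4.67 (4.199 to 5.206). Between 500 and 1000 bp the densities were 45.1 and 12.9, with a ratio of 3.49 (3.35 to 3.64). The density of Full WT then dropped steeply, to 11.6 between 2 and 3 kb and 3.53 between 5 and 10 kb, against 6.88 and 2.43 in Full M880A. In the last of these bins the ratio was 1.45 (1.398 to 1.512). From 20 to 50 kb the densities were nearly level, at 2.93 and 1.76, with a ratio of 1.66 (1.63 to 1.69), and between 2000 and 5000 kb they were 1.12 and 1.04. The Full WT difference thus had a narrow part below about 3 kb and a broad part in which the ratio was still 1.34 (1.33 to 1.35) between 500 and 1000 kb.

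**Figure D1:**
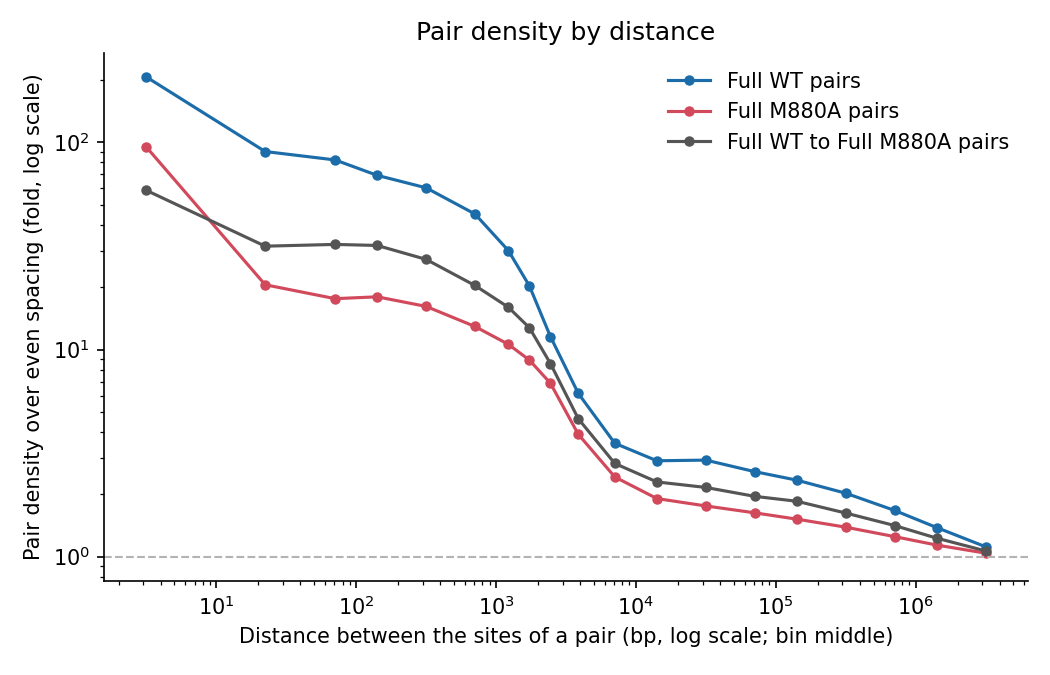
Pair density (fold over even spacing, log scale) against the distance between the sites of a pair (bp, log scale) for Full WT, Full M880A and pairs between the lists; the dashed line is even spacing. Full WT lies above Full M880A in every bin, with 45.1 against 12.9 between 500 and 1000 bp and 2.93 against 1.76 between 20 and 50 kb.

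To set the narrow part apart from the broad part, the density within 1 kb was divided by that between 20 and 50 kb in the same list. This short-range excess was 19.6 in Full WT and 8.96 in Full M880A, a ratio of 2.19. The share of sites with a neighbour of the same list within 1 kb was 39.1% (38.4 to 39.7) in Full WT. In the whole Full M880A list it was 21.3% (20.9 to 21.7), and 15.8% at the length of the Full WT list, by the exact expectation of thinning. At that length the nearest neighbour of the median site was 4284 bp away in Full WT and 24348 bp away in Full M880A. For the most closely spaced 25% of sites it was at most 289 bp and 3528 bp away. The least crowded sites were alike, since 90% of sites had a neighbour within 133679 bp in Full WT and within 139914 bp in Full M880A.

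The spacing of Full M880A sites depended on the length of their fragments, and that of Full WT sites did not to a like degree. In Full M880A the pair density within 1 kb was 48.8 among sites with fragments under 100 bp and 10.4 among the rest, a ratio of 4.67 (4.40 to 4.95). In Full WT the same densities were 56.8 and 59.6, a ratio of 0.954 (0.906 to 1.00). Short fragments were the denser class on 20 of 20 chromosomes in Full M880A and on 6 of 20 in Full WT. In Full M880A the dependence was present at each level of read support. Among Full M880A sites with 100 or more reads the densities were 35.5 for short and 9.33 for longer fragments, and among those with 2 to 9 reads 72.6 and 12.5. Full WT sites with 2 to 9 reads were also denser with short fragments, at 103 against 61.3, while those with 100 or more reads had 55.4 and 68.3.

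Compared at like fragment length, the libraries therefore differed unequally. For fragments of at least 100 bp the ratio of Full WT to Full M880A pair density within 1 kb was 5.70 (5.45 to 5.96), with a range from 3.74 to 9.18 over the 20 chromosomes. For fragments under 100 bp it was 1.16 (1.09 to 1.24), and it was above 1 on 14 of 20 chromosomes, from 0.648 on chromosome 13 to 1.98 on chromosome 14. The short-range excess of short fragments was 21.6 in Full WT and 15.3 in Full M880A, and that of longer ones 19.1 and 7.03. The shares with a neighbour within 1 kb, at equal list length within each class, were 24.98% and 21.2% for short fragments and 31.1% and 7.84% for longer ones.

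Short-fragment sites of Full M880A were also spread more widely around each other than those of Full WT. Up to 100 bp the densities of short-fragment sites were 100.2 in Full WT and 101.1 in Full M880A, and between 100 and 500 bp 61.1 and 48.8. Between 1 and 2 kb the order was turned, with 24.0 in Full WT and 29.3 in Full M880A. Between 2 and 5 kb the densities were 7.55 and 12.8, and between 20 and 50 kb 2.63 and 3.19. For longer fragments Full WT was denser in each of these bins, with 25.9 against 6.31 between 1 and 2 kb. Values for the whole Full M880A list, and those between the lists, thus combine 2 classes of sites that differ in spacing. What the fragment length stands for, and whether both classes have 1 source, was not tested.

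Proximity to Full WT sites showed the same dependence. Of the Full M880A sites with fragments of 61 to 70 bp, 31.0% (28.9 to 33.3) had a Full WT site within 1 kb. For fragments of 111 to 120 bp the share was 21.1% (19.5 to 22.9), and for those of 181 to 200 bp it was 10.7% (9.87 to 11.6). Full WT sites with fragments of 61 to 70 bp had another Full WT site within 1 kb in 37.6% of cases (35.6 to 39.7), and those of 181 to 200 bp in 37.6% (35.2 to 39.9). The Full M880A shares lay between 27.4% and 31.3% up to 100 bp and between 10.7% and 12.5% above 140 bp, whereas the Full WT shares stayed between 37.5% and 41.6% in all 12 length bins.

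**Figure D2:**
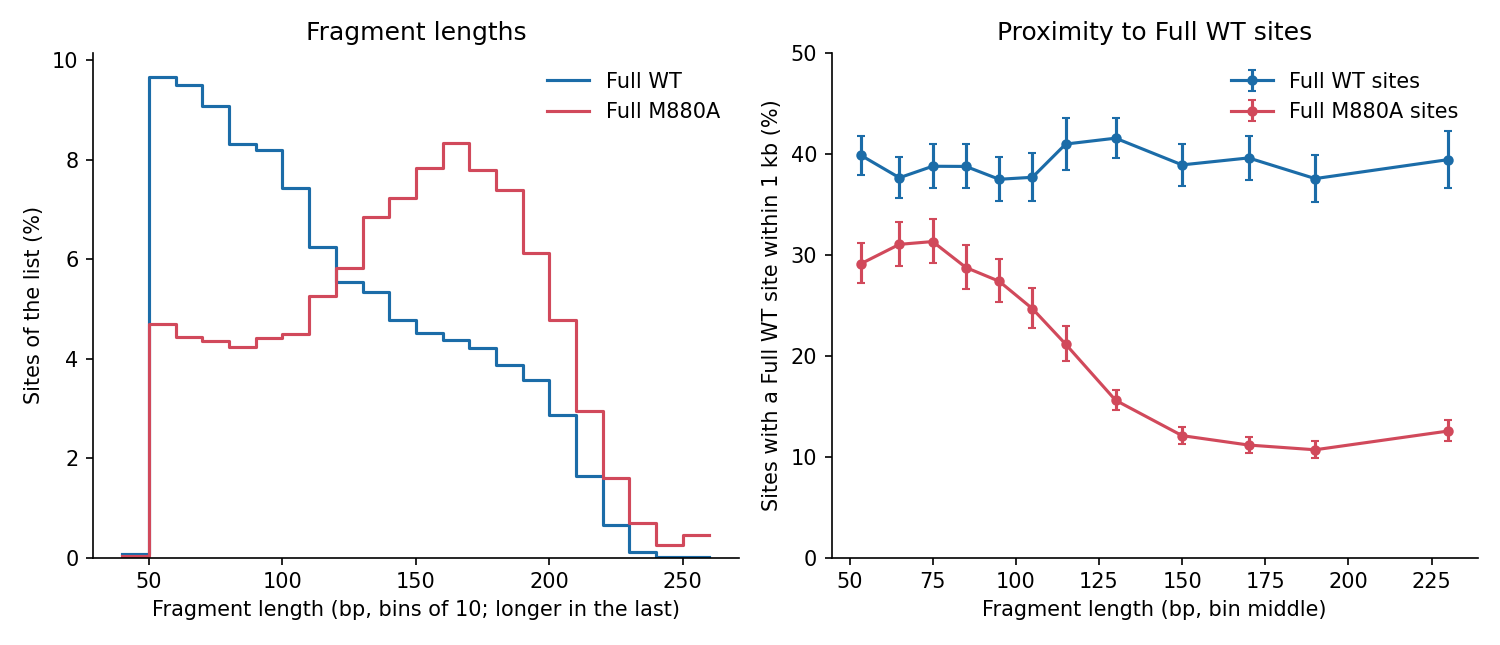
Left, fragment lengths of the sites of each list (percent of sites in bins of 10 bp, longer ones in the last bin); right, percent of sites of each length that had a Full WT site, other than themselves, within 1 kb, with Wilson 95% intervals. The Full WT points lie between 37.5% and 41.6%, and the Full M880A points fall from 31.0% at 61 to 70 bp to 10.7% at 181 to 200 bp.

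Sites of the 2 forms lay near each other. A Full M880A site lay within 1 kb of 33.1% (32.5 to 33.7) of the Full WT sites, against 3.20% for even placement. With the longer Full M880A list brought to the length of the Full WT list, this share was 24.9%, against 1.85%. In the other direction, 17.2% (16.9 to 17.6) of the Full M880A sites had a Full WT site within 1 kb, against 1.85%. The pair density between the lists within 1 kb was 25.002. With all fragment lengths together, Full M880A sites were thus 1.59 times as dense around Full WT sites as around other Full M880A sites. Divided by the geometric mean of the lists' own densities, the density between the lists was 0.419 up to 10 bp, 0.732 between 10 and 50 bp, 0.901 between 100 and 200 bp, 0.948 between 1.5 and 2 kb and 0.982 between 100 and 200 kb, a ratio that is 1 where the lists follow the same density in proportion. The own densities up to 10 bp include the same-strand positions 1 to 3 bp apart, so 0.419 may not describe placement alone. With short fragments in both lists the density between them was 40.8, against 48.8 among the short-fragment Full M880A sites. With longer ones it was 20.4, against 10.4 among the Full M880A sites. For short fragments, Full M880A sites were thus less dense around Full WT sites than around each other.

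Crowding in 1 list went with presence of the other. Full WT sites with no neighbour of their own within 1 kb numbered 13703, and 13.2% (12.7 to 13.8) of them had a Full M880A site within 1 kb. With 3 or 4 own neighbours the share was 76.1% (74.2 to 78.0), and all 178 Full WT sites with 10 or more own neighbours had a Full M880A site that near. Of the 30928 Full M880A sites without an own neighbour, 6.83% (6.56 to 7.12) had a Full WT site within 1 kb, and of the 105 with 10 or more own neighbours 98.1% (93.3 to 99.5). Uncrowded sites of either list were therefore mostly away from the other list, though above the 3.13% and 1.81% of even placement.

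Neighbouring vectors more than 100 bp apart pointed the same way in close to 50% of pairs. Between 200 and 500 bp, 49.3% (47.8 to 50.9) of the Full WT pairs and 48.4% (46.6 to 50.1) of the Full M880A pairs were on the same strand. Between 10 and 100 bp the shares were 56.8% (54.4 to 59.1) and 53.2% (50.2 to 56.2). Up to 10 bp they were 71.0% (66.6 to 75.1) and 83.9% (80.7 to 86.6). HIV integrase joins the vector ends to the target strands at a short stagger, so insertions into 1 target site in opposite orientations give junctions a few bases apart. In both lists pairs on opposite strands were most frequent where the minus-strand position was 4 bp above the plus-strand position, with 41 pairs in Full WT and 32 in Full M880A. The other 40 offsets between -20 and 20 bp had 0 to 9 pairs (median 4) and 0 to 10 pairs (median 3).

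Over larger regions both lists favoured the same parts of the genome, and Full WT favoured them more. The span between the outermost sites had 2583 windows of 1 Mb. No site of either list lay in 29 of them, 111 held Full M880A sites only and 3 held Full WT sites only, with the Full M880A list 1.75 times as long. Across these windows the counts had a Pearson correlation of 0.887 and a Spearman correlation of 0.733, as a description of windows that share chromosomes and neighbours. The fullest windows held 50% of the Full WT sites in 430 windows (16.6%) and 50% of the Full M880A sites in 670 (25.9%). Morisita's index, the chance that a random pair of sites shares a window relative to even placement, was 2.56 in Full WT and 1.60 in Full M880A at 1 Mb, and 1.44 and 1.20 at 10 Mb. For fragments under 100 bp the index at 1 Mb was 2.47 in Full WT and 2.58 in Full M880A, and for longer fragments 2.62 and 1.42. The greater regional concentration of Full WT was thus present among longer fragments and not among short ones.

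Grouped by the number of sites over both lists, windows with 1 to 9 sites held 2.72% of all sites in Full WT and 4.73% in Full M880A, a ratio of 0.575 (0.524 to 0.630). The ratio was 1.01 (0.990 to 1.04) in the 1012 windows with 20 to 49 sites, 1.34 (1.292 to 1.397) in the 155 with 50 to 99 and 1.56 (1.48 to 1.65) in the 37 with 100 or more. The ratio thus rose from the poorest to the fullest class. Windows were grouped by the sites of these same lists, so the grouping itself favours the more concentrated list in the full classes. The classes were not split by fragment length.

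Of the 1204 windows with at least 20 sites over both lists, the share of sites was at least 2-fold higher in Full WT in 82, or 6.81%, and at least 2-fold lower in 78, or 6.48% (0.5 added to each count). The median ratio was 1.07. By the rule that the exact counting interval of the ratio lies wholly on 1 side of 1, without adjustment for the number of windows, 8.22% were higher in Full WT and 2.91% lower. Among the 192 windows with at least 50 sites, 26 were at least 2-fold higher and 1 was lower. For short fragments 9 of 162 windows were higher and 10 lower, and for longer ones 98 of 671 were higher and 46 lower.

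The 3 fullest windows held a larger share of all Full WT sites than of all Full M880A sites. At chr10:79000001-80000000 there were 157 Full WT and 203 Full M880A sites, or 69.8 and 51.7 per 10000 sites of each list, a ratio of 1.35 (1.09 to 1.67). The next Mb, from 80000001 to 81000000, held 159 and 176 sites (1.58, 1.27 to 1.97). At chr19:5000001-6000000 there were 147 and 145 (1.77, 1.399 to 2.244). With fragments under 100 bp Full M880A had the larger share in both windows of chromosome 10. They held 64 and 70 such sites in Full WT, or 63.5 and 69.5 of 10000. In Full M880A they held 79 and 71, or 90.6 and 81.4. The window of chromosome 19 held 62.5 and 57.3. No intervals were computed for these shares by fragment length. With longer fragments Full WT was higher in all 3, at 74.9 against 40.6, 71.7 against 34.3 and 67.7 against 31.1 per 10000.

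The highest ratios were found in windows of few sites. The window chr7:25000001-26000000 held 20 Full WT and 8 Full M880A sites (ratio 4.37, 1.84 to 11.5), and the window chr9:78000001-79000000 held 15 and 6 (4.37, 1.60 to 13.7). The window chr4:123000001-124000000 held 19 and 9 (3.69, 1.59 to 9.26). The 18 and 9 sites at chr2:118000001-119000000 and the 14 and 7 at chr13:96000001-97000000 gave 3.49 each, with intervals from 1.49 and from 1.32. The window chr2:119000001-120000000, also with 14 and 7, tied with the last of these. At the other end, the window chr19:49000001-50000000 and the window chr4:65000001-66000000 each held 1 site of Full WT and 20 of Full M880A (0.0874, 0.00211 to 0.546). The window chr3:155000001-156000000 held 1 and 19 (0.0920, 0.00221 to 0.579), the window chr5:52000001-53000000 held 2 and 25 (0.140, 0.0160 to 0.561), and the window chr15:53000001-54000000 held 2 and 20 (0.175, 0.0198 to 0.719). A further 3 windows, chr15:67000001-68000000, chrX:83000001-84000000 and chrX:127000001-128000000, had the same 2 and 20 sites. In the 5 windows named before these, between 16 and 19 of the Full M880A sites had fragments of at least 100 bp. Genes in the windows are not named, since no annotation of mm9 was used here.

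**Figure D3:**
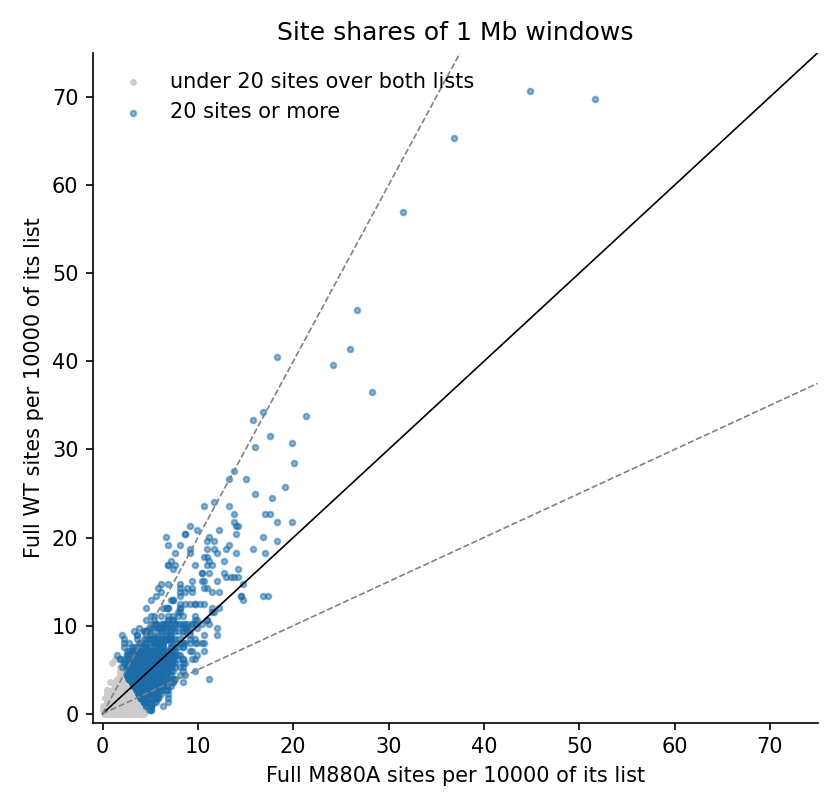
Sites per 10000 of each list in windows of 1 Mb, Full WT against Full M880A; the solid line marks equal shares and the dashed lines 2-fold differences. The fullest windows lie above the solid line, with 69.8 against 51.7 and 65.4 against 36.9 per 10000 sites, while the windows more than 2-fold apart lie mostly among those with few sites.

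Ratios of whole chromosomes spread less than those of the 1 Mb windows, which hold far fewer sites and so carry more counting error. Full WT had the larger share on 8 chromosomes and the smaller on 12, and the interval of the ratio was above 1 on 5 and below 1 on 4. The highest ratio was on chromosome 17, with 5.45% of sites in Full WT and 4.54% in Full M880A (1.20, 1.12 to 1.29). Chromosome 4 (1.14, 1.07 to 1.22) and chromosome 11 (1.14, 1.07 to 1.21) followed, the latter with 7.93% and 6.96%. The lowest was on chromosome X, with 3.70% and 4.62% (0.801, 0.737 to 0.870). In contrast to the density of pairs, the deficit on X was alike for short fragments (0.819, 0.707 to 0.949) and longer ones (0.814, 0.732 to 0.903).

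At the scale of single loci, sites of both lists were pooled, and runs of 10 or more sites, none over 1000 bp from the next, were called foci. There were 295 foci on 20 chromosomes, with a median width of 2611 bp (638 to 8015), and they covered 0.0325% of the span. They held 10.2% of all sites in Full WT and 5.73% in Full M880A. Chromosomes 11, 10 and 17 had 34, 33 and 31 foci, while chromosome 1, the longest, had 3 and chromosome 14 had 1. Foci enter by their pooled number of sites, so the more crowded list brings in more of the places where it is high.

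The share of sites was at least 2-fold higher in Full WT in 134 of the 295 foci, or 45.4%, and at least 2-fold lower in 10, or 3.39%. The median ratio was 1.75, against 1.07 over the 1 Mb windows. By the exact counting interval alone, 18.3% of the foci were higher and 1.69% lower. Among sites with fragments of at least 100 bp, 45 of 83 foci were higher and 1 was lower. With short fragments the order of these counts was turned, though the counts were small, with 5 of 29 foci higher and 9 lower.

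The fullest foci held many sites of both forms. The largest, at chr17:34253427-34260712, held 24 Full WT and 32 Full M880A sites (ratio of shares 1.31, 0.739 to 2.30). At chr5:143572537-143578909 there were 18 and 24 sites (1.31, 0.670 to 2.52), and at chr19:5798784-5804532 there were 20 and 21 (1.66, 0.856 to 3.23). A pair of foci on chromosome 11, from 120091446 to 120099460 and from 120046453 to 120050666, held 19 and 21 and 16 and 22 sites. At chr17:36001784-36007316 Full WT had 22 sites and Full M880A 16 (2.40, 1.21 to 4.89), with the only interval among the 10 fullest foci that excluded 1. The foci at chr10:127101151-127106114 and at chr5:123587554-123593498 held 14 and 23 sites each (1.06, 0.506 to 2.16). Those at chr19:46574767-46580457 and at chr4:135696218-135703619 held 12 and 24 (0.874, 0.398 to 1.82) and 10 and 25 (0.699, 0.300 to 1.51). Short fragments made up 15 of the 24 Full M880A sites in the first of these and 13 of the 25 in the second.

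The 5 foci with the highest ratios were 1187 to 3384 bp wide. At chr10:80259524-80262907 there were 15 Full WT sites, 12 of them with at least 10 reads, and no Full M880A site, so with the Full M880A list put at 3 sites the share was at least 8.74-fold higher (interval of the ratio from 6.27). At chr8:72875697-72876883 the counts were 10 and 0, or at least 5.82-fold higher on that basis (ratio from 3.92 upward). The foci at chr10:127929657-127931822, at chr4:131428958-131430962 and at chr17:45708761-45711188 held 10 and 1, 9 and 1, and 14 and 2 sites. Their ratios were 17.5 (2.49 to 758), 15.7 (2.18 to 689) and 12.2 (2.81 to 111). These are measured ratios with wide intervals and cannot be ranked against the lower bounds of the foci without Full M880A sites.

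The 5 foci with the lowest ratios had further Full M880A sites nearby. At chr10:127051438-127054851 and at chr2:30572494-30575734 Full M880A had 11 sites each and Full WT had 0, which with Full WT put at 3 sites is at least 2.10-fold lower (interval of the ratio up to 0.696). At chr10:79628789-79629858 there were 0 and 10 (at least 1.91-fold lower, interval up to 0.780). At chr7:26064597-26068578 there were 1 and 14 (0.125, 0.00295 to 0.820), and at chr2:30562948-30566065 there were 1 and 11 (0.159, 0.00369 to 1.09). Within 10 kb on either side of these 5 foci lay 3 to 20 further Full M880A and 0 to 5 Full WT sites. The foci on chromosome 2 lie within 10 kb of each other, so each counts the other's sites in its flank. The flank of chr10:127051438-127054851 takes in the focus at chr10:127056449-127059430, with 5 Full WT and 8 Full M880A sites. Of the Full M880A sites in these 5 foci, 3 to 6 per focus had fragments under 100 bp.

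Within shared foci, Full WT sites lay nearer the middle. In the 176 foci with at least 5 sites of each list, distances were taken from the midpoint between the median positions of the lists. The median distance was 534 bp for 1533 Full WT sites and 684 bp for 1628 Full M880A sites, and 47.3% (44.8 to 49.8) and 38.6% (36.3 to 41.0) of them lay within 500 bp. The median deviation of sites from the median of their own list was the smaller one in Full WT in 106 foci and in Full M880A in 70. The medians of the lists themselves were 429 bp apart in the median focus. These measures of shape were taken over all fragment lengths and were not split at 100 bp.

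**Figure D4:**
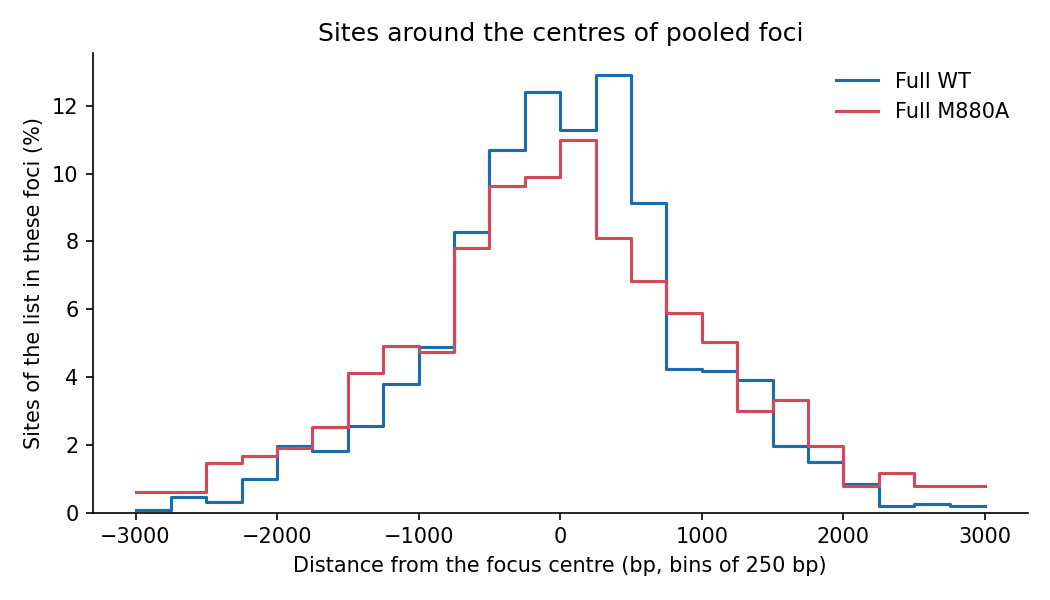
Percent of the sites of each list in bins of 250 bp around the centre of the 176 foci with at least 5 sites of each list. Full WT has 47.3% and Full M880A 38.6% of its sites within 500 bp of the centre.

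When foci were instead called in each list alone, with at least 5 sites and gaps of at most 1000 bp, Full WT had 445 and Full M880A 336 in its longer list. The Full WT foci, widened by 500 bp at either end, held 4.05% of the Full M880A sites on 0.0448% of the span, 90.3 times the covered share. In 71 of them (16.0%) there was no Full M880A site. The Full M880A foci held 6.75% of the Full WT sites on 0.0375% of the span, 180 times the covered share, and 44 of them (13.1%) had no Full WT site. Each set was chosen for being full in its own list, so the absence of the other form describes these foci and gives no direction.

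The median read support per site was higher in Full WT, while the means were close, at 94.3 and 92.9 reads. The median site had 41 reads (quartiles 10 and 121) in Full WT and 24 (5 and 90) in Full M880A, a ratio of 1.71. Sites with under 10 reads made up 24.8% and 34.8%. The lists include no site with fewer than 2 reads. The most-read 1% of sites carried 9.42% of the Full WT and 16.3% of the Full M880A reads. The top Full WT site, at position 148725230 of chromosome 7 on the minus strand, had 2823 reads, followed by position 68507363 of chromosome 11 with 2034 and position 35379918 of chromosome 17 with 1925. The last of these had 6 Full WT and 10 Full M880A neighbours within 1 kb. In Full M880A the top sites were at position 108463808 of chromosome 8 with 7444 reads, position 47986175 of chromosome 11 with 4621 and position 4479524 of chromosome 2 with 4565, none with a neighbour of either list within 1 kb.

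The difference in reads varied with fragment length. Sites with fragments under 100 bp had a median of 88 reads in Full WT and 28 in Full M880A, while those of at least 100 bp had 23 and 22. The latter medians join lengths with opposite differences, since the median was 71 in Full WT and 47 in Full M880A for lengths over 100 and up to 110 bp, and 27 and 61 for those over 160 and up to 180 bp. Over all fragment lengths, crowding varied less with the number of reads. In Full WT 40.3% (38.1 to 42.5) of the sites with 2 reads and 38.8% (37.61 to 39.96) of those with 100 or more had an own neighbour within 1 kb. In the whole Full M880A list the shares were 24.3% (23.1 to 25.6) and 19.2% (18.40 to 20.01), which is lower at high read numbers. Among short fragments alone, the pair density within 1 kb was higher at 2 to 9 reads than at 100 or more in both lists, with 103 and 55.4 in Full WT and 72.6 and 35.5 in Full M880A. From sites without a neighbour to those with 10 or more, the median number of reads lay between 37.5 and 49 in Full WT and between 21 and 31 in Full M880A.

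**Figure D5:**
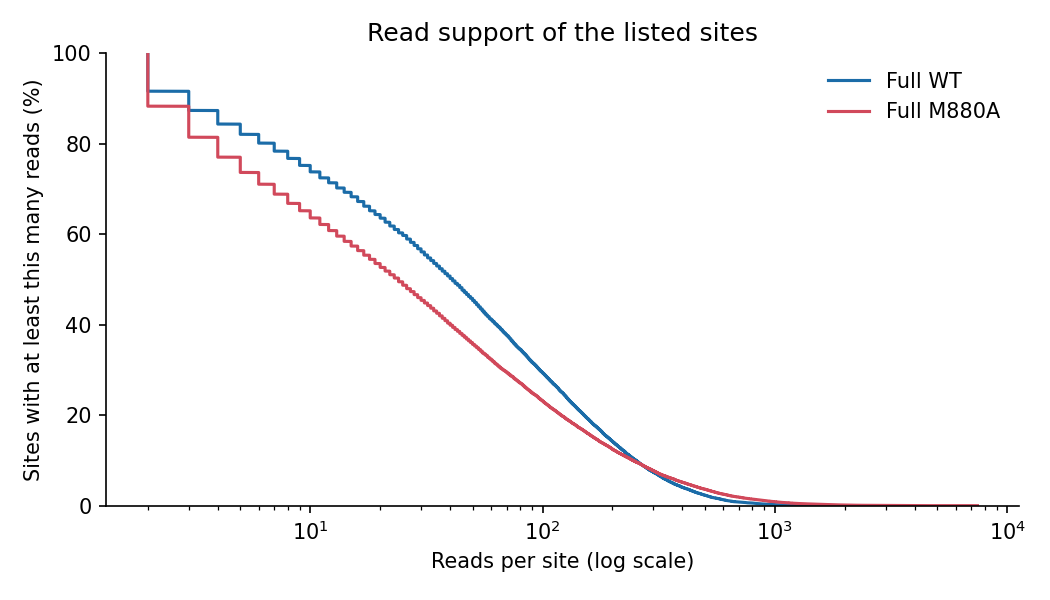
Percent of sites with at least a given number of reads (log scale) in each list. Full WT lies above Full M880A over most of the range, with medians of 41 and 24 reads, and the curves cross in the upper tail, where the top sites have 2823 and 7444 reads.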

How the data were processed

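HIT-seq libraries were made from genomic DNA (10 µg) sheared to about 500 bp, with vector junctions amplified by linker-mediated nested PCR, 15 further cycles and paired reads of 108 nt, per the labels' protocols. The authors deposited, for each library, a list of fragments with their positions. The submitters' processing notes name mm9 as the build and MACS 1.4.2 as a tool, whose part in making the lists they leave unstated; aligner, filters and read joining were not given in the sources used here. A deposited score column, 0 throughout, stayed unused. The whole number that follows each read name was read as the site's reads because of its range of values; no source states it.

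The junction was taken as start + 1 on the plus strand and the end on the minus strand, and lines with the same junction were joined (354 and 401 lines). Pair counts, shares at equal list length (exact hypergeometric expectation) and even placement (closed form over 2569 Mb) needed no random draws. Ratios of shares and of pair densities have exact conditional binomial intervals, the latter with pairs as the counts, and shares have Wilson intervals. Calls used a fold of 2 with 0.5 added to each count. Named positions were the 10 fullest foci, the 5 highest and 5 lowest foci and windows by ratio, the 3 fullest windows and the 3 most-read sites per list. The members, lists and measures were chosen with earlier results of these data known, and the split at 100 bp after the fragment lengths had been seen. Shares at equal list length and pair densities were first tested on simulated data with known answers. Window and focus calls were run on simulated sites without a known answer to compare, and the other measures were not simulated. Alternatives are given in the closing section. Python 3.11.15, numpy 2.4.6, pandas 2.3.3, scipy 1.17.1 and matplotlib 3.10.9 were used.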

Additional observations from a re-analysis of the deposited data

Results flagged for a closer look

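The far end of a fragment, opposite the junction, entered no comparison. In Full WT 167 lines repeated the chromosome, strand and far end of another line of the list, and in Full M880A, with the longer list, 11 did. Repeated junctions were closer in number, with 354 and 401 lines. These counts were singled out because they are a signal in a part of the files that the comparisons leave aside. Joining lines that share a far end left 22320 Full WT and 39281 Full M880A sites, and the pair density ratio within 1 kb was then 3.59.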

How the results depend on the processing

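Among sites with fragments under 100 bp, a split chosen after seeing the data, the self-clustering ratio (the shares with an own neighbour within 1 kb at equal list length, 2.48 over all sites) was 1.18, the pair density ratio (3.64) was 1.16, the short-range excess ratio (2.19) was 1.41 and the ratio of median reads (1.71) was 3.14. Among fragments of at least 100 bp these were 3.96, 5.70, 2.71 and 1.05. The share of Full WT sites near a Full M880A site (33.1%) was 18.9% and 26.3%, from thinner lists. Short fragments gave 9 higher and 10 lower windows of 162 (over all sites 82 and 78 of 1204) and 5 higher and 9 lower foci of 29 (134 and 10 of 295). Longer ones gave 98 higher and 46 lower windows of 671, and 45 higher and 1 lower focus of 83. With at least 10 reads per site, self-clustering was 2.66, the share near Full M880A 28.0% and the median read ratio 1.20. That limit gave 67 higher and 20 lower windows of 653, and 69 higher and 3 lower foci of 151. A reach of 5 kb gave 1.83, 2.65 and 50.2% for self-clustering, pair density and the share near Full M880A. Self-clustering was 1.83 between full lists and 2.61 with same-strand positions within 10 bp merged, and the excess ratio was 2.44 over 5 to 20 kb. Windows with at least 50 sites were higher in 26 and lower in 1 of 192, and windows of 100 kb in 349 and 41 of 976. Gaps of at most 500 bp gave 86 higher and 6 lower foci of 181. These were 47.5% and 3.31%, close to the 45.4% and 3.39% of the main setting. Leaving out chromosome X or positions listed in both, or joining shared far ends, moved none of these 9 measures beyond its limits. No alternative took a ratio to the other side of 1. That check did not apply to the share or to the window and focus counts. With short fragments the lower foci outnumbered the higher ones (9 and 5 of 29), unlike over all sites, though these counts are small. Lower and higher windows were nearly equal in number (10 and 9 of 162). The causes were not tested. No paired analysis was possible because each form has 1 library. Depth limits single loci: 134 of 295 foci were at least 2-fold higher in Full WT, and in 54 the counting interval lay above 1.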

Other observations

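Positions on the same strand 1 to 3 bp apart were frequent in both lists, with 247 pairs in Full WT and 450 in Full M880A, or 82.3 and 150 pairs per bp of distance, against 10.6 and 7.06 pairs per bp at distances of 4 to 20 bp. The less-read position of such a pair had a median of 2 reads in either list, and the other 9 in Full WT and 8 in Full M880A. Exactly the same strand and position was listed for both forms at 67 sites, 0.298% of the Full WT and 0.171% of the Full M880A list. At these sites the median number of reads was 51 in Full WT and 18 in Full M880A.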
